A study of Mus musculus with 18 samples.

Results

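The 9 genes described here encode the pore-forming subunits of 2 families of ionotropic glutamate receptor, the AMPA receptors (Gria1 to Gria4) and the kainate receptors (Grik1 to Grik5). They were taken by gene name, and every ac4C peak listed under one of the 9 names in any of 6 mice was kept, which gave 77 of 52494 listed peaks. Of the 9 subunits, 7 had at least 1 peak, out of 7598 mRNAs with a peak in the whole data set, and Gria3 and Grik2 had none in any mouse. The peaks came from acRIP-seq of the hippocampus at 6 months of age, in 3 5xFAD mice and 3 WT mice. The 5xFAD line carries human APP and presenilin-1 transgenes with mutations of familial Alzheimer disease, driven by the Thy1 promoter, which is active mainly in neurons, and the sex of these mice and their relation to each other are not stated in the labels. Each mouse gave an anti-ac4C library, an input library and an IgG library, and 1 peak table per mouse was deposited. In acRIP-seq, RNA fragments that carry N4-acetylcytidine are captured by an antibody, and the fold enrichment of a peak is its captured signal, less that of IgG in the study's methods, relative to input.

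AMPA receptors carry most fast excitatory transmission in the hippocampus, and the Gria2 subunit sets whether the channel lets calcium through. Kainate receptors act on both sides of the synapse and are well known at the mossy fibre synapses of area CA3. Grik1, Grik2 and Grik3 encode the subunits that can form a kainate channel by themselves, while Grik4 and Grik5 encode the high-affinity subunits, which reach the surface in combination with them. N4-acetylcytidine is made from cytidine by the acetyltransferase NAT10, and in mRNA it has been linked to stability and translation.

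The peaks of the family lay almost entirely on 3 kainate subunits. Grik5 held 26 peaks, Grik3 held 25 and Grik4 held 21, together 72 of the 77, and each of these 3 mRNAs had a peak in all 6 mice. The other 6 subunits shared 5 peaks, and none of those recurred in a second mouse. Gria1 and Gria2, the principal AMPA subunits of the adult hippocampus, thus had no ac4C exon that recurred. Merging overlapping peaks of the mice gave 29 regions of the 9 genes, each 1 listed exon, of which 17 were found in at least 2 mice and 2 in all 6. Over all genes, 13090 of 20038 regions were found in at least 2 mice. Exons are numbered here as in the transcript with the longest coding sequence of the mm10 annotation, and peaks are located to an exon, with no finer position. A caller peak was listed under 1 exon only, so an exon without a listing may still lie under a peak listed at its neighbour.

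**Figure D1:**
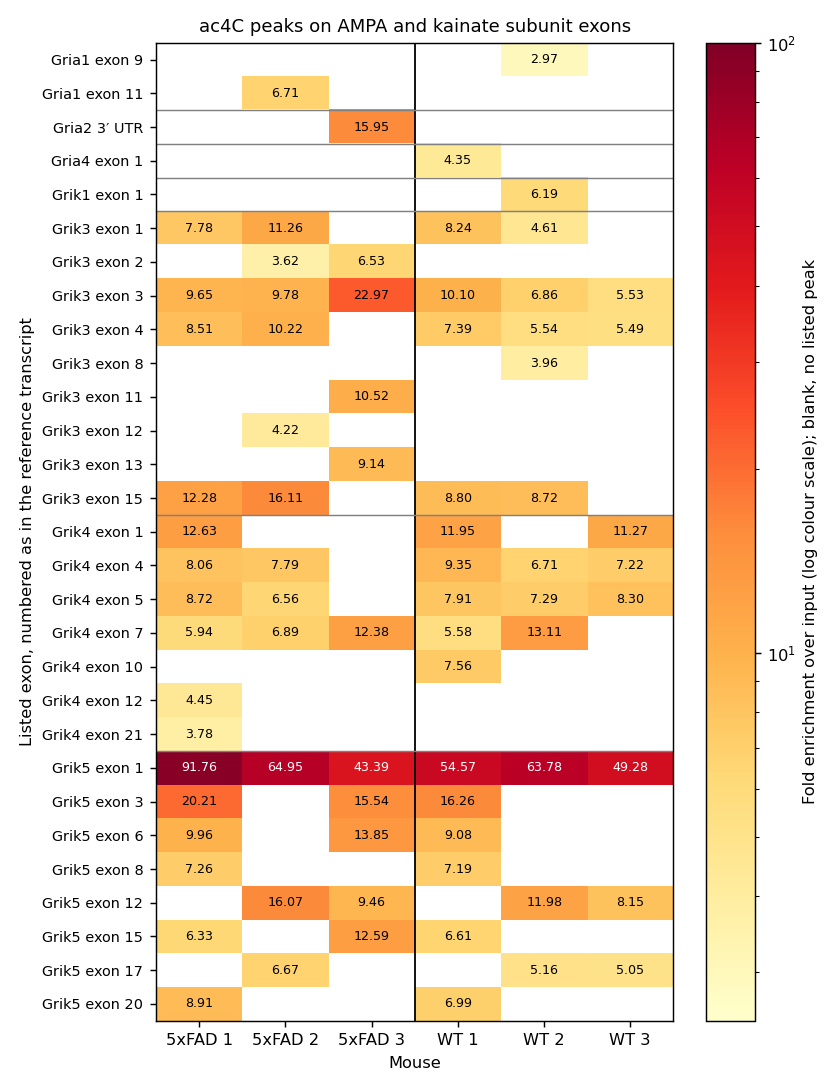
Fold enrichment over input of every listed peak of the 9 subunits, by exon (rows) and mouse (columns, 5xFAD left of WT), on a log colour scale with the value printed in each cell; blank cells had no listed peak. Grik5 exon 1 is the darkest row, from 43.39 to 91.76 in the 5xFAD mice and from 49.28 to 63.78 in the WT mice, and the 6 subunits other than Grik3, Grik4 and Grik5 have at most 1 filled cell in a row.

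Sequences of the exons that carry these results follow, read 5′ to 3′ on the strand of the mRNA, with the longest run of CNN triplets (C followed by any 2 bases) in capitals. The first set shows the 1 coding exon found in all 6 mice, Grik3 exon 3 (chr4:125632268-125632525, plus strand, codons 98 to 184), beside the exon of equal length in a sister subunit, which had no peak in any mouse. This is Grik1 exon 3 (chr16:88051335-88051592, minus strand), and both positions are in mm10.
Grik3 exon 3: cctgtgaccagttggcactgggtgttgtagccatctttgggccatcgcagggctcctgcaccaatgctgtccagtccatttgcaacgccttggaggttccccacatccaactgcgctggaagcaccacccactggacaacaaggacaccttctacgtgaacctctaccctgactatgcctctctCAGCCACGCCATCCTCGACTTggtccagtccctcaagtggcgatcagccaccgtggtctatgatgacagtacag
Grik1 exon 3: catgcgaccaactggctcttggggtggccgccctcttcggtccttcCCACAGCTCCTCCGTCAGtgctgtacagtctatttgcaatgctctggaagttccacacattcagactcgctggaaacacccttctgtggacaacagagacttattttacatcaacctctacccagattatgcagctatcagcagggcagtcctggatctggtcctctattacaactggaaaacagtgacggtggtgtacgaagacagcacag

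Both exons have 258 bases, of which 181 matched when they were laid base against base. Grik3 exon 3 held 88 cytidines, against 75 in Grik1 exon 3. At 31 positions Grik3 had a C where Grik1 had another base, and the reverse held at 18 positions. The longest run of CNN held 7 triplets in Grik3 and 6 in Grik1.

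The second set shows recurrent exons of the high-affinity subunits. Grik4 exon 7 (chr9:42659718-42659896, minus strand) and Grik5 exon 6 (chr7:25062878-25063056, minus strand) are equal in length and were both found, in 5 mice and 3 mice. Grik4 exon 5 (chr9:42675213-42675310, minus strand) was found in 5 mice and is the shortest recurrent exon. The last line is a stretch of 30 bases (chr7:25072114-25072143, minus strand) from the 5′ UTR exon of Grik5, the most enriched region of the family.
Grik4 exon 7: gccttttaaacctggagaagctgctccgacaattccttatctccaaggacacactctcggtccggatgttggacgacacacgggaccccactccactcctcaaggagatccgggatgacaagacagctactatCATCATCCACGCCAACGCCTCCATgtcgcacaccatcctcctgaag
Grik5 exon 6: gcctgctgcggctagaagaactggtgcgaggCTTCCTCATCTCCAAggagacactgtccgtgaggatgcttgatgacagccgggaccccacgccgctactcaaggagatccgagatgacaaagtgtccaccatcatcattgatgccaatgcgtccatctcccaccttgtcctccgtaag
Grik4 exon 5: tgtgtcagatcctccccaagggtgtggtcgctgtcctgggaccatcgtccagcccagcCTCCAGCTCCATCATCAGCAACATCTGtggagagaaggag
Grik5 exon 1, part: CCTCTCCCCCGGCCCCAGCCTCACCAGCAC

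Grik4 exon 7 and Grik5 exon 6 matched at 129 of 179 positions, with 63 and 56 cytidines. Grik4 exon 5, in 5 mice, had 31 cytidines and its counterpart Grik5 exon 4, in 0 mice, had 29. The reverse order held for Grik4 exon 4, in 5 mice, with 46 cytidines, and Grik5 exon 3, in 3 mice, with 48. Runs of 4 CNN triplets on the mRNA strand were counted by their starts, overlapping ones included. There were 7 in Grik4 exon 7, 5 in Grik5 exon 6, 6 in Grik4 exon 5 and 7 in Grik3 exon 3. Grik1 exon 3 and Grik5 exon 4, without a peak, had 6 and 4, and Grik4 exon 4, in 5 mice, had 1. Of the exons of Grik3, Grik4 and Grik5, 15 of 17 with a peak in at least 2 mice held such a run. So did 23 of the 33 without a peak. The same pattern was present in 72.0% of the 2257 regions of any gene within 10% of the length of Grik4 exon 7, and in 86.4% of the 1394 regions near the length of Grik3 exon 3. On the opposite strand it was present in 63.2% of the regions of the first length class. The match is a description of the letters and locates no acetylated base.

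Grik5, a high-affinity kainate subunit, carried the strongest ac4C signal of the family. The peak on its exon 1, a 5′ UTR exon listed at chr7:25072040-25072369, had fold enrichments of 91.76, 64.95 and 43.39 in the 5xFAD mice, against 54.57, 63.78 and 49.28 in the WT mice. The values of both genotypes overlapped, with the highest and the lowest of the 6 in 5xFAD mice. Among all peaks of its own mouse this peak ranked 17th, 39th and 463rd by fold enrichment in the 5xFAD mice, against 59th, 27th and 51st in the WT mice. The mouse with rank 463, 5xFAD mouse 3, had a median fold enrichment over all its peaks of 13.05, against 6.88 to 7.63 in the other 5 mice. The listed score, which grows as the p-value of the peak caller falls, was 3100 in 5 of the 6 mice and 2067.9 in 5xFAD mouse 3. Exon 1 averaged 66.7 ± 24.2 in 5xFAD mice and 55.9 ± 7.34 in WT mice (SD, n = 3 each), a log2 fold change of 0.20 ± 0.57 (SE) that did not pass the test (limma over 10027 regions, adjusted p = 0.989). On a common scale, where each mouse's values were multiplied by 1 factor, this difference turned to -0.41.

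The listed interval, of 330 bases, holds 45.5% C, more than 99.4% of all 20038 regions. CNN runs of 4 triplets started at 22 positions in it. Its longest run spans 11 triplets, of which 30 bases are printed above. The annotated exon 1, of 253 bases, holds 42.7% C and 14 such starts. The listed interval begins upstream of the start of exon 1 in the annotated transcript (25072292 on the minus strand) and matches no annotated exon end to end. Exon 1 made up 63.5%, 74.1% and 45.8% of the summed enrichment of Grik5 in the 5xFAD mice and 54.2%, 78.8% and 78.9% in the WT mice.

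The other 7 ac4C exons of Grik5 were split between mice in a way that did not follow genotype. Exons 3, 6, 8, 15 and 20 were listed together in 5xFAD mouse 1 and in WT mouse 1, while exons 12 and 17 were listed in 5xFAD mouse 2, WT mouse 2 and WT mouse 3. 5xFAD mouse 3 had exons 3, 6, 12 and 15. Exon 3 (codons 27 to 82) was the strongest of them, at 20.21 in 5xFAD mouse 1 and 15.54 in 5xFAD mouse 3, against 16.26 in WT mouse 1, with none in the other 3 mice. Exon 12 (codons 424 to 491) had 16.07 in 5xFAD mouse 2 and 9.46 in 5xFAD mouse 3, against 11.98 in WT mouse 2 and 8.15 in WT mouse 3. The remaining exons had values from 5.05 to 13.85. Exon 3 is listed as 5′ UTR after another transcript model and is coding in the transcript used here. Neither exon 3 nor exon 12 holds a run of 4 CNN triplets, which 74.2% and 77.3% of regions of like length do.

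Across the whole family, mice 1 and mice 2 shared more exons with the mouse of the same number in the other genotype than with mice of their own genotype. Of the regions of the 9 genes found in either mouse, 14 of 18 were shared by 5xFAD mouse 1 and WT mouse 1, and 10 of 16 by 5xFAD mouse 2 and WT mouse 2. Mouse 3 of both genotypes shared 3 of 16. The 6 pairs of the same genotype shared between 26.3% and 50.0% of the family's regions, and the 6 pairs that differed in both number and genotype shared between 20% and 50%. Over the regions of all genes, the 3 pairs with the same number shared 55.2%, 54.8% and 38.2%, and the 12 other pairs between 28.4% and 37.7%. The labels do not say what a shared number stands for.

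**Figure D2:**
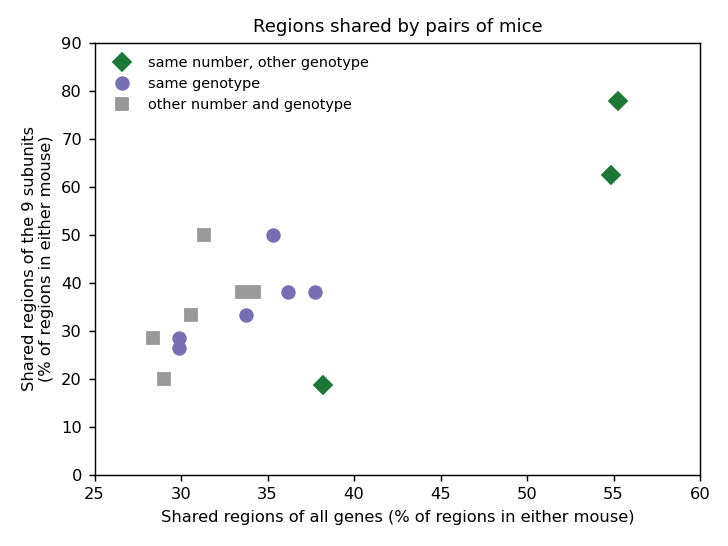
Share of regions found in both mice of a pair, out of those found in either, for all genes (x axis, %) and for the 9 subunits (y axis, %); each point is 1 of 15 pairs of mice. Pairs 1 and 2 with the same number and different genotype sit at the upper right, at 77.8% and 62.5% for the subunits, and the pair of number 3 is at 18.8%.

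Grik3, which encodes a low-affinity kainate subunit, was listed on the exons for the start of the protein. Of its 25 peaks, 17 lay on exons 1 to 4, which cover codons 1 to 244. That stretch encodes the signal peptide and part of the extracellular amino-terminal domain, the outermost domain of the receptor. Exon 3 had fold enrichments of 9.65, 9.78 and 22.97 in the 5xFAD mice, against 10.10, 6.86 and 5.53 in the WT mice. The 22.97 belongs to 5xFAD mouse 3, and WT mouse 1 lay above the other 2 5xFAD mice, so the genotypes overlapped. Exon 3 averaged 14.1 ± 7.65 in 5xFAD mice and 7.50 ± 2.35 in WT mice (SD, n = 3 each), a log2 fold change of 0.76 ± 0.62 (SE; limma adjusted p = 0.856). It was 0.20 on a common scale and 0.37 without 5xFAD mouse 3.

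Exon 4 was listed at 8.51 and 10.22 in 5xFAD mice 1 and 2, against 7.39, 5.54 and 5.49 in the WT mice, and was missing from 5xFAD mouse 3. Exon 1, which holds the start codon, had 7.78 and 11.26 in 5xFAD mice 1 and 2 and 8.24 and 4.61 in WT mice 1 and 2. Mouse 3 of both genotypes had no peak on it. Exon 15 (codons 772 to 855), near the end of the coding sequence, showed the same 4 mice, with 12.28 and 16.11 in 5xFAD mice and 8.80 and 8.72 in WT mice. Exon 2 was the only region of the family found in at least 2 mice of 1 genotype and no mouse of the other. It was listed at 3.62 in 5xFAD mouse 2 and 6.53 in 5xFAD mouse 3, with no peak in 5xFAD mouse 1 or any WT mouse. Both peaks were weak: they lay at percentile 2.47 and 2.90 of the fold enrichments of their own mice, with scores of 58.02 and 40.62 beside a lowest listed score of 40 in the tables. The region entered the test through the 5xFAD mice alone and did not pass it (limma adjusted p = 0.482). The 4 further exons of Grik3 were each listed in 1 mouse, at 3.96 to 10.52.

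Summed over its peaks, Grik3 had 38.22, 55.21 and 49.16 in the 5xFAD mice, against 34.53, 29.69 and 11.02 in the WT mice. All 5xFAD mice lay above all WT mice. The averages were 47.5 ± 8.61 in 5xFAD mice and 25.1 ± 12.4 in WT mice (SD, n = 3 each), with a log2 fold change of 1.03 ± 0.63 (SE), which did not pass the test (limma over 5444 mRNAs, adjusted p = 0.692). Grik3 was the 1 of 3 subunits tested whose genotypes did not overlap in the higher direction, and 14.7% of all mRNAs tested were separated in that direction. No subunit was separated in the lower direction, as were 0.771% of all mRNAs tested. Without WT mouse 3, which had 2 Grik3 peaks against 4 and 5 in the other WT mice, the log2 fold change of Grik3 was 0.54. On a common scale Grik3 had 34.2, 52.3 and 33.5 in the 5xFAD mice and 40.04, 36.3 and 16.1 in the WT mice, and the genotypes overlapped. That scale brought the median log2 fold change over all mRNAs to 0.02, against 0.54 as deposited, and left 4.94% of mRNAs separated in the higher and 3.62% in the lower direction.

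Grik4, the other high-affinity subunit, was listed mainly on 4 exons, which held 18 of its 21 peaks. Exon 4 (codons 28 to 83) had 8.06 and 7.79 in 5xFAD mice 1 and 2, against 9.35, 6.71 and 7.22 in the WT mice. Exon 5 (codons 83 to 115) had 8.72 and 6.56 in the same 5xFAD mice, against 7.91, 7.29 and 8.30 in the WT mice. Both exons were absent from 5xFAD mouse 3 and present in every WT mouse. Exon 7 (codons 171 to 230) was listed in every 5xFAD mouse, at 5.94, 6.89 and 12.38, and in WT mice 1 and 2, at 5.58 and 13.11. Together these 3 exons encode part of the extracellular amino-terminal domain, as do the early exons of Grik3. The 5′ UTR exon 1 had 12.63 in 5xFAD mouse 1, against 11.95 in WT mouse 1 and 11.27 in WT mouse 3. The 3 exons listed in 1 mouse each had values from 3.78 to 7.56.

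The summed enrichment of Grik4 was 43.58, 21.24 and 12.38 in the 5xFAD mice, against 42.35, 27.11 and 26.79 in the WT mice. The lowest 2 values were those of 5xFAD mice and the highest was that of a 5xFAD mouse, so the genotypes overlapped. The averages were 25.7 ± 16.1 in 5xFAD mice and 32.1 ± 8.89 in WT mice (SD, n = 3 each), with a log2 fold change of -0.45 ± 0.65 (SE; limma adjusted p = 0.831). The difference of Grik4 was -1.04 on a common scale and -0.04 without 5xFAD mouse 3, and was called in neither. Grik5 summed to 144.43, 87.69 and 94.83 in the 5xFAD mice, against 100.7, 80.92 and 62.48 in the WT mice. Here again the genotypes overlapped, with means of 109 ± 30.9 in 5xFAD mice and 81.4 ± 19.1 in WT mice (SD, n = 3 each) and a log2 fold change of 0.41 ± 0.54 (SE; limma adjusted p = 0.822). On a common scale the difference of Grik5 turned to -0.20.

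**Figure D3:**
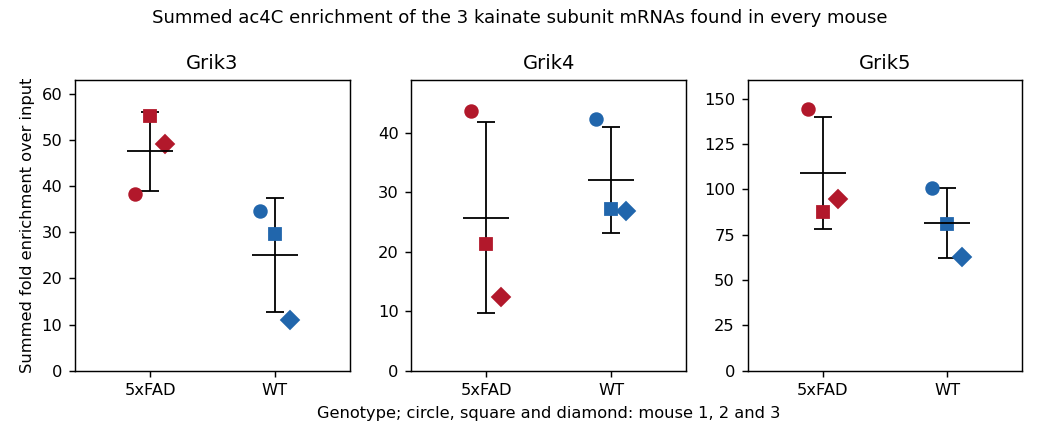
Summed fold enrichment over input of Grik3, Grik4 and Grik5 (y axes start at 0) in 3 5xFAD mice (red) and 3 WT mice (blue); bars give the mean and SD, and symbols mark mouse numbers. Grik3 is separated by genotype, 38.22 to 55.21 in 5xFAD mice against 11.02 to 34.53 in WT mice, and Grik4 and Grik5 overlap.

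No subunit and no exon of the family was called different between 5xFAD and WT hippocampus, and neither was any other feature: limma called 0 of 5444 mRNAs and 0 of 10027 regions at an adjusted p under 0.05, that is 0% of each. At an unadjusted p under 0.05 there were 307 mRNAs and 512 regions, none of them of the 9 genes. Of the 29 regions of the family, 15 passed the filter for testing, with adjusted p between 0.482 and 0.999. In none of the 15 were the genotypes separated, while 13.9% of all regions tested were separated with higher values in 5xFAD and 0.658% with lower values. The log2 fold change was above 0 for 10 of the 15 regions, with a median of 0.35, beside a median of 0.44 over all regions and 0.54 over all mRNAs. All 3 subunit mRNAs tested were of the overlay class, that is, found in at least 2 of 3 mice of both genotypes, as were 50.7% of the 7598 mRNAs with a peak. None was AD unique (in 5xFAD only) or AD absent (in WT only), and 4 subunits were in neither genotype often enough to be classed.

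The family had 16, 13 and 11 peaks in the 5xFAD mice and 16, 13 and 8 in the WT mice, out of 10234, 10088 and 8459 listed peaks in the 5xFAD mice and 8375, 7904 and 7434 in the WT mice. The number of subunit peaks was equal in mouse 1 and in mouse 2 of both genotypes. It averaged 13.3 ± 2.52 in 5xFAD mice and 12.3 ± 4.04 in WT mice (SD, n = 3 each), a difference smaller than the spread. The listed FDR of the 77 peaks ran from 9.29% to 100%, so none was under 5%, and the 10 at 100% all came from 5xFAD mouse 3. The median fold enrichment of the subunit peaks was 8.62, 7.79 and 12.6 in the 5xFAD mice, beside medians of 7.63, 7.44 and 13.1 over all their peaks, and 8.08, 6.71 and 7.69 in the WT mice, beside 7.16, 7.10 and 6.88.

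**Figure D4:**
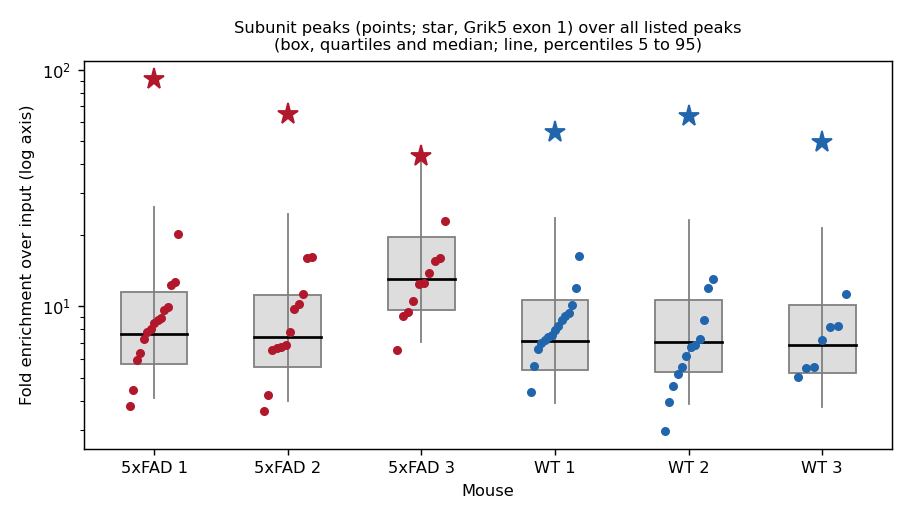
Fold enrichment over input (log axis) of the subunit peaks in each mouse (points; star, Grik5 exon 1), drawn over all listed peaks of that mouse (box, quartiles and median; line, percentiles 5 to 95). Apart from Grik5 exon 1, the highest subunit peak is 22.97, in 5xFAD mouse 3, whose median over all peaks is 13.05.

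AMPA subunits and Grik1 had isolated peaks only. Their 5 peaks are named here after their values were seen. Gria1, a principal AMPA subunit, was listed on exon 11 in 5xFAD mouse 2, at 6.71, and on exon 9 in WT mouse 2, at 2.97, which was the lowest value of all 77. Gria2 had 1 peak, at 15.95 in 5xFAD mouse 3, on a 3′ UTR exon (chr3:80704681-80705200) outside the transcript used here, with 11.5% C. Gria4, an AMPA subunit with fast kinetics, had 1 peak at 4.35 on its 5′ UTR exon 1 in WT mouse 1. Grik1 had 1 peak at 6.19 on a start codon exon in WT mouse 2. Gria3 and Grik2, the subunits without a peak, encode an AMPA subunit that pairs with Gria2 and the main kainate subunit of mossy fibre synapses. The tables hold no input or RNA level, so an mRNA with few copies and an mRNA with little ac4C cannot be told apart, and in whole hippocampus neither can fewer cells and less RNA per cell.

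The subunits with recurrent peaks were also those with C-rich coding sequences, a property the choice of genes did not use. Grik5 had 32.4% C in its coding sequence, Grik3 30.2% and Grik4 28.6%. The other 6 subunits had between 19.7% (Gria2) and 24.0% (Gria1), and the groups did not overlap. Among 21864 protein-coding genes, Grik5, Grik3 and Grik4 stood at percentile 92.6, 83.5 and 73.1, while Gria3 and Grik2 stood at 15.6 and 17.7. Runs of 4 CNN triplets started 20.8, 22.9 and 19.5 times per kilobase of coding sequence in Grik5, Grik3 and Grik4, against 2.22 to 7.72 times in the other 6 subunits, beside a median of 7.41 over all genes. All 9 genes have coding sequences of similar length, from 2649 to 2937 bases. GC content of the coding sequence separated the same genes. It was 61.7%, 56.4% and 55.8% in Grik5, Grik3 and Grik4, against 44.7% (Gria2) to 51.7% (Gria1) in the other 6.

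Across all protein-coding genes the share with a listed peak also went up with coding C content. With the genes ordered by C content and divided into 5 groups of equal size, it was 46.3% in group 5, with the most C, against 19.99% in group 1, with the least. The share of overlay mRNAs was 28.5% in group 5, against 7.41% in group 1. Grik3 and Grik5 fall in group 5, Grik4 in group 4, Gria1 and Grik1 in group 2, and Gria2, Gria3, Gria4 and Grik2 in group 1. Of the 7598 mRNAs with a peak, 7197 were matched by name. Within Grik3, Grik4 and Grik5, the 17 exons with a peak in at least 2 mice had a median of 32.8% C and a median length of 179 bases, and the 33 exons without a peak had 29.3% and 129 bases. Both genes and exons share their base composition with their neighbours. The part of GC content, RNA abundance or exon length in these differences was not tested.

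**Figure D5:**
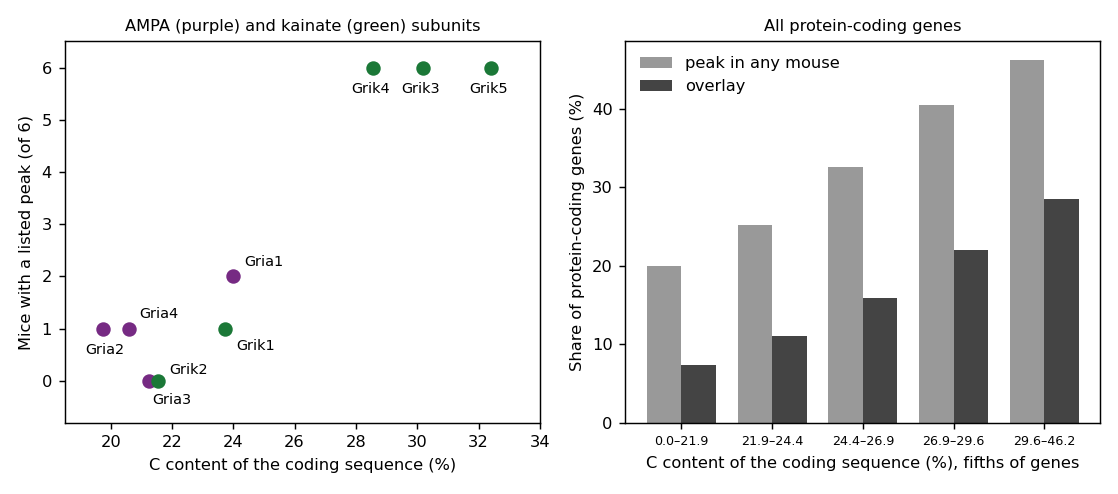
Left, C content of the coding sequence (x axis, %) and number of mice with a listed peak (y axis, of 6) for the AMPA subunits (purple) and kainate subunits (green). Right, share of all protein-coding genes with a peak in any mouse (grey) and of the overlay class (dark), in 5 equal groups by coding C content (%). Grik3, Grik4 and Grik5 lie above 28% C with peaks in 6 of 6 mice, and the other 6 subunits lie at or under 24.0% with peaks in at most 2.

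Most peaks of the subunits were listed in coding exons. Of the 77 peaks, 55 were listed as coding sequence, 13 as 5′ UTR, 5 at the start codon, 3 at the stop codon and 1 as 3′ UTR. These are 71.4%, 16.9%, 6.49%, 3.90% and 1.30%, beside 51.4%, 8.16%, 19.9%, 18.3% and 2.27% of all 52494 peaks. Of the 13 peaks in the 5′ UTR class, 6 were Grik5 exon 1 and 3 were Grik5 exon 3. The shares are counts over peaks that recur in the same exons and carry no test.

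Numbers that the peak caller gave in genome order were not all listed within these genes. Between the first and the last listed Grik4 peak, 112 numbers were spanned in 5xFAD mouse 1, of which 6 were listed. The corresponding Grik3 span in that mouse held 56 numbers with 4 listed, and the Grik5 span held 16 with 6 listed. In WT mouse 1 the spans held 68, 46 and 12 numbers for Grik4, Grik3 and Grik5, with 5, 4 and 6 listed. These were the widest spans of each genotype, and other mice had fewer gaps: in 5xFAD mouse 3 all 5 numbers of the Grik5 span were listed, and the Grik3 span of WT mouse 3 held 3 numbers with 2 listed. The study's methods state that peaks on exons of protein-coding genes were kept and those that overlapped IgG peaks dropped. They also state filters on adjusted p and fold enrichment, though no subunit peak had a listed FDR under 5%. Which step removed a given peak is not stated.

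Among the auxiliary subunits of these receptors, 16 of 20 genes had a peak, 13 were tested and none was called, with a median log2 fold change of 0.47. Cacng3 and Cacng2, TARP subunits that traffic AMPA receptors, were the most enriched. Cacng3 had 34.24, 18.02 and 60.14 in the 5xFAD mice, against 32.77, 27.37 and 19.07 in the WT mice. Cacng2 had 28.94, 36.30 and 43.51 in the 5xFAD mice, against 23.00, 26.19 and 13.35 in the WT mice, and its genotypes did not overlap (limma adjusted p = 0.741). Shisa6, which keeps AMPA receptors at the synapse, was separated as well, with 19.04, 21.28 and 27.80 in the 5xFAD mice and 9.57, 14.41 and 5.65 in the WT mice (limma adjusted p = 0.582). These were 2 of 13 mRNAs tested, beside 14.7% of all mRNAs separated in that direction, and on a common scale the genotypes overlapped for both. Gsg1l, a negative modulator of AMPA receptors, was the third most enriched and overlapped. Neto2, an auxiliary subunit of kainate receptors, had no peak. Its relative Neto1 had 21.64, 4.31 and 26.59 in the 5xFAD mice and 17.56 in WT mouse 1 only (limma adjusted p = 0.626). Neto1 entered the test through the 5xFAD mice alone and is named here after its values were seen.

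Of 14 scaffold and trafficking genes 11 had a peak, 10 were tested and none was called, with a median log2 fold change of 0.39. Grip2, which binds the tail of AMPA subunits, was listed in every WT mouse, at 3.87, 4.75 and 4.24, and in no 5xFAD mouse (limma adjusted p = 0.128). Grip2 entered the test through the WT mice alone. Its values were low, beside a percentile 5 of 3.91, 3.86 and 3.77 over all peaks of WT mice 1, 2 and 3. Dlg4, the PSD-95 scaffold, had 23.46, 20.80 and 48.37 in the 5xFAD mice, against 19.39, 18.05 and 15.81 in the WT mice, without overlap (limma adjusted p = 0.813). On a common scale Dlg4 had 21.02, 19.7 and 33.0 in the 5xFAD mice and 22.5, 22.1 and 23.1 in the WT mice, which overlapped. That scale only multiplies values, so the zeros of Grip2 in the 5xFAD mice could not change under it. The shares of all mRNAs separated as deposited were 14.7% in the higher and 0.771% in the lower direction. Grasp and the fusion ATPase Nsf completed the 3 most enriched of the list and overlapped. Of 12 synaptic organisers and kinases 8 had a peak and 6 were tested, and none was called or separated (median 0.07). The most enriched were the kinases Prkaca, Prkca and Camk2b.

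Adarb1, the editing enzyme that recodes Gria2 and kainate subunit mRNAs, had 67.09, 26.72 and 63.68 in the 5xFAD mice, against 36.07, 18.67 and 20.61 in the WT mice (limma adjusted p = 0.709). Its relative Adarb2 was also tested and not called, and Adar had no peak. The delta receptor mRNA Grid1 was overlay and was not called. Of the 7 NMDA subunits 6 had a peak, 4 were tested and none was called, with a median of 0.18. Grin1, the obligatory NMDA subunit, had 24.34, 39.09 and 93.01 in the 5xFAD mice, against 17.66 in WT mouse 3 and no peak in the other WT mice, without overlap as deposited (limma adjusted p = 0.582). Grin1 entered the test through the 5xFAD mice alone. On a common scale WT mouse 3 had 25.9 and 5xFAD mouse 1 had 21.8, so the genotypes of Grin1 overlapped. Grin2d and Grin2c overlapped between genotypes.

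The mRNAs whose values over the 6 mice were most like those of Grik5 were Arrb1, Emx2 and Lsm14b, with Pearson r of 0.98, 0.97 and 0.97 of the log2 values on a common scale. They are the highest of 5444 mRNAs over 6 mice, and the points share their library and its scale, so the values are a description.

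Of the markers used to check the tissue, 9 of 10 neuronal genes had a peak, Camk2a being the exception, and 8 of 11 microglial genes, with Tyrobp, Trem2 and Aif1 at 0. The summed enrichment of the neuronal list was 275.9 to 407.6 in the 5xFAD mice and 138.4 to 191.6 in the WT mice. That of the microglial list was 120.9 to 172.2 in the 5xFAD mice and 15.8 to 38.0 in the WT mice, and neither list overlapped. Oligodendrocyte genes had a peak on 5 of 7, summing to 231.2 to 270.5 in the 5xFAD mice and 153.6 to 205.7 in the WT mice, with Mog at 0. The oligodendrocyte sums overlapped on a common scale, at 157.8 to 256.2 in the 5xFAD mice and 221.7 to 251.7 in the WT mice. Astrocyte genes had a peak on 5 of 7, with Aqp4 and Gjb6 at 0, and their sums overlapped, at 110.3 to 177.8 in the 5xFAD mice and 65.3 to 117.2 in the WT mice. The precursor list had a peak on 4 of 5 genes and overlapped. The endothelial list had a peak on 1 of 5, Flt1, without overlap (limma adjusted p = 0.582). Of all mRNAs tested, 14.7% were separated with higher values in 5xFAD as deposited, and 4.94% on a common scale. The neuronal sums were still separated on a common scale, at 252.3 to 278.1 in the 5xFAD mice and 202.6 to 222.2 in the WT mice. So were the microglial sums, at 82.5 to 154.3 in the 5xFAD mice and 23.1 to 44.01 in the WT mice, and the endothelial ones, at 44.7 to 70.7 in the 5xFAD mice and 22.6 to 42.6 in the WT mice, while Grik3 was not. As deposited these lists moved in the direction of Grik3, as did most mRNAs, and their part in its values was not tested.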

How the data were processed

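Anti-ac4C, input and IgG libraries of 6 hippocampi were sequenced by the authors, trimmed with cutadapt 1.9.3 and aligned to mm10 with HISAT2 2.04, per the labels. The authors called peaks with MACS in each mouse, without pooling, kept those on exons of protein-coding genes and dropped those that overlapped IgG peaks. Their methods also state filters of an adjusted p under 0.05 and a fold enrichment above 1. By the deposited FDR, none of the 77 subunit peaks was under 5%. The deposited fold enrichment is a ratio to input in a peak, for which the authors' methods give captured signal less IgG signal as the numerator; the tables list neither signal by itself. The deposited score is the caller's p-value on a negative log scale, with a lowest value of 40, and the deposited FDR is in percent. Read depth is unknown, and input levels were not analysed here. Deposited starts count from 0 and were raised by 1, since 85.3% to 87.1% of them then fell on exon starts.

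The value of an mRNA was the sum of its fold enrichments in a mouse, and peaks of different mice that overlapped by at least 1 base formed a region, with the highest peak standing for the mouse. Features found in 2 or 3 mice of either genotype were tested with limma 3.58.1 (R 4.3.3) on log2(value + 1). A missing peak counted as 0. Benjamini-Hochberg adjustment and a threshold of 0.05 were used. The fit was first run on simulated data of smaller spread and without missing peaks, so that run does not show its power here. Log2 fold changes are on the log2(value + 1) scale, which understates low values. On the common scale, 1 factor a mouse equalised the median of the 2028 mRNAs found in all 6 mice. Exons, codons and sequences came from GENCODE and the mm10 genome. The labels name separate replicates without stating what same-numbered mice share or that each replicate is 1 animal, so p-values measure the spread between these samples only. Deviations from the genotype means of same-numbered mice correlated at 0.53, 0.47 and 0.29, so the numbers were treated as pairs in a further fit. The range was -0.59 to -0.30 for pairs of the same genotype and -0.34 to -0.12 for pairs that differed in both. Deviations from a mean of 3 mice sum to 0, which pulls pairs of the same genotype below 0. All 9 genes and their regions in at least 2 mice are named, and of each partner list the 3 most enriched mRNAs and those without overlap, apart from items not reported here. The members and lists were chosen with earlier results of these data known.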

Additional observations from a re-analysis of the deposited data

How the results depend on the processing

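With the replicate block (paired mice), limma called 0 mRNAs and 0 regions, and Grik3, Grik4 and Grik5 had adjusted p of 0.544, 0.620 and 0.620. No subunit was called under any alternative. Over all genes, the 0 mRNAs called became 10 on a common scale, 109 with a pseudocount of 0.1, 83 with the highest peak and 93 with the mean peak of an mRNA, and 0 to 247 when 1 mouse was left out, the 247 without 5xFAD mouse 3. Calls among regions became 200 on a common scale and 0 to 830 when 1 mouse was left out, the 830 again without 5xFAD mouse 3. The cause of these changes was not tested.

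Grik3 stayed above 0 and Grik4 below 0 under every alternative, at 0.54 to 1.32 and -0.91 to -0.04 with 1 mouse left out. Grik5 turned to -0.20 on a common scale and -0.24 after quantile normalization, and Grik5 exons 1 and 12 to -0.41 and -0.25 on a common scale. Leaving out 1 mouse turned the sign of Grik3 exon 1 (-0.60 to 1.48), Grik3 exon 4 (-1.20 to 0.54), Grik3 exon 15 (-0.68 to 1.72), Grik4 exon 4 (-1.55 to 0.039), Grik4 exon 7 (-0.10 to 1.81), Grik5 exon 1 (-0.064 to 0.47) and Grik5 exon 12 (-0.95 to 1.44). The difference in subunit peaks per mouse ran from -1.17 to 2.83. The 3 subunits stayed overlay with a stricter fold enrichment, a stricter score and the same number of best-scoring peaks taken from each mouse. Without a change of sign, a common scale moved Grik3 to 0.44, Grik4 to -1.04 (-1.01 after quantile normalization), Grik3 exon 3 to 0.20, exon 1 to 0.14, exon 4 to -0.96 and exon 15 to 0.19, and Grik4 exon 7 to 0.61. Read depth is unknown, so its limit on these differences was not tested.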
